A study of Mus musculus with 19 samples.

Results

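The RNA of mature mouse oocytes labelled as CPEB3 knockout was compared with that of oocytes labelled as heterozygous. The oocytes were in metaphase II (MII), the stage at which meiosis pauses until fertilization. Of the 19 libraries of the series, the 10 MII libraries were used, 5 labelled Het (CPEB3+/-) and 5 labelled KO (CPEB3-/-), each named here by its replicate letter A to E. Genes with at least 0.1 FPKM (fragments counted per gene, scaled to the length of its exons and to the size of the library) in 5 of these 10 libraries were compared, which were 10515 of the 25891 genes listed. The females were BL6 mice of 6 to 10 weeks in both groups, primed with 5 IU PMSG. For MII oocytes matured in vivo, 5 IU hCG followed after 48 h. The methods also describe maturation in vitro and do not say which oocytes were sequenced. According to the methods, the deletion is conditional: floxed Cpeb3 is cut by a Cre recombinase driven by the Zp3 promoter, which is active in growing oocytes. The knockout genotype there is LoxP/LoxP with ZP3 Cre+/-, and the control genotype is LoxP/- with the same Cre or +/+. The labels name only Het and KO, and do not say which of the control genotypes Het is. The methods give quadruplicates of 5 cells per group whereas the labels list 5 libraries, and all 5 were used. Nothing says that the libraries came from separate animals, so the p values measure the spread between these libraries.

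CPEB proteins bind the cytoplasmic polyadenylation element (CPE), a U-rich sequence near the 3′ end of an mRNA, and so govern the length of its poly(A) tail and its translation. A fully grown oocyte transcribes very little. During maturation stored mRNAs are translated, deadenylated or degraded in a set order, and a difference in RNA level between MII oocytes can therefore arise in growth or in maturation. A kit that primes on poly(A) also reads less of an mRNA whose tail is very short, so that less RNA and a shorter tail cannot be told apart in these values.

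The 3′ ends below belong to called genes that recur in the results: an mRNA long used to study translational control in oocytes (Plat), the kinase of the meiotic arrest (Mos), an oocyte-specific gene (Oog3), a pair of detoxifying enzymes (Gstp1 and Gstp2) and a histone (Hist1h2ap). Each is a stretch of 30 bases of the annotated 3′UTR (GRCm38, transcript strand, written as DNA), from chr8:22782745-22782774 (+) for Plat, chr4:3870667-3870696 (-) for Mos, chr4:144157561-144157590 (-) for Oog3, chr19:4035407-4035436 (-) for Gstp1, chr19:4040285-4040314 (-) for Gstp2 and chr13:21833029-21833058 (-) for Hist1h2ap. Capitals mark the CPE letters TTTTAAT in Plat and TTTTAT in Oog3, the polyadenylation hexamer AATAAA in Mos, Gstp1 and Gstp2, and the stem-loop that ends histone mRNAs in Hist1h2ap.
Plat: gtatatttataTTTTAATctattttagttt
Mos: tagggcatatttttaggaAATAAAgttacc
Oog3: catataataaatgtgttaactttgTTTTAT
Gstp1: cccagcactAATAAAgtttgtaagacagaa
Gstp2: cccagcactAATAAAgtttgtaagacagaa
Hist1h2ap: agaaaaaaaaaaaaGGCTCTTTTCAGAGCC
The CPE letters of Plat end 82 bases before the end of its 3′UTR and those of Oog3 end 4 bases before it. The 3′UTRs of Gstp1 and Gstp2 are identical in 66 of 66 bases, so this stretch on its own does not tell reads of these genes apart. CPE letters (TTTTAT or TTTTAAT, transcript strand only) stood in the last 100 bases of 21.3% of the 7427 tested genes with an annotated 3′UTR of that length. They stood in 15.6% of those whose level rose, in 27.7% of those whose level fell and in 21.2% of the others. After the trend with base composition described below was removed, the shares were 19.3%, 29.6% and 20.9%. These shares are a description of the letters and were not tested.

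Cpeb3 RNA, counted over the whole gene, was not lower in the libraries labelled KO. It was at 0.0700, 0.0987, 0.0450, 0.0627 and 0.101 FPKM in Het libraries A to E, and at 0.215, 0.141, 0.164, 0.131 and 0.157 FPKM in KO libraries A to E. Every library labelled KO lay above every library labelled Het (mean 0.0755 ± 0.0240 against 0.162 ± 0.0325 FPKM, SD, n = 5 each, two-sided exact permutation p = 0.00794, the smallest this design allows). The exon removed is not given in the sources used here, and reads outside a removed exon do not check a deletion. The related Cpeb1, the best known CPEB of oocytes, was at 0.570 ± 0.144 and 0.696 ± 0.0863 FPKM (log2 difference 0.19, SE 0.144, adjusted p = 0.372). For Cpeb4 the values were 0.333 ± 0.0384 and 0.366 ± 0.0422 FPKM (log2 difference 0.03, SE 0.114, adjusted p = 0.877).

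The libraries were alike in depth. The spacing of the lowest values put it at 19.5 to 23.6 M fragments (M, mega) in Het and at 19.7 to 22.8 M in KO libraries. The deposited FPKM values summed to 83573 to 86770 over all genes in Het and to 77208 to 83005 in KO libraries, without overlap (two-sided exact permutation p = 0.00794). The 10 oocyte markers were all measured and summed to 822 to 982 FPKM in Het and 845 to 917 FPKM in KO libraries, and limma called 0 of them, with 3 at an unadjusted p under 0.05. Of 13 markers of cumulus and granulosa cells, the cells around the oocyte, 1 was measured high enough to test and 2 were at 0 in all libraries. Their sum was 0.299 to 0.496 FPKM in Het and 0.299 to 0.50 FPKM in KO libraries. Markers of oviduct epithelium summed to 0.126 to 0.225 and 0.136 to 0.244 FPKM, and those of blood and leukocytes to 0.0512 to 0.434 and 0.113 to 0.218 FPKM. The base composition of the RNA measured did move with genotype. The correlation across genes between a library's deviation from the mean of all 10 and the GC content of the exons ranged from -0.386 to 0.0608 in Het and from -0.0264 to 0.377 in KO libraries (difference of means 0.325, two-sided exact permutation p = 0.0476). It lay within 0.1 of 0 in 4 libraries (Het B and E, KO D and E), and the log2 difference over those 4 alone, a comparison chosen after seeing the data, is given beside many of the genes described. It was over 1.5 times smaller than the whole difference in 51 of the 107 called genes tabulated for the text, with 1 of opposite sign. The p of this trend ran from 0.0397 to 0.0873 when each library was left out in turn, and was above 0.05 without Het A, C or D or without KO A, B or C.

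**Figure D1:**
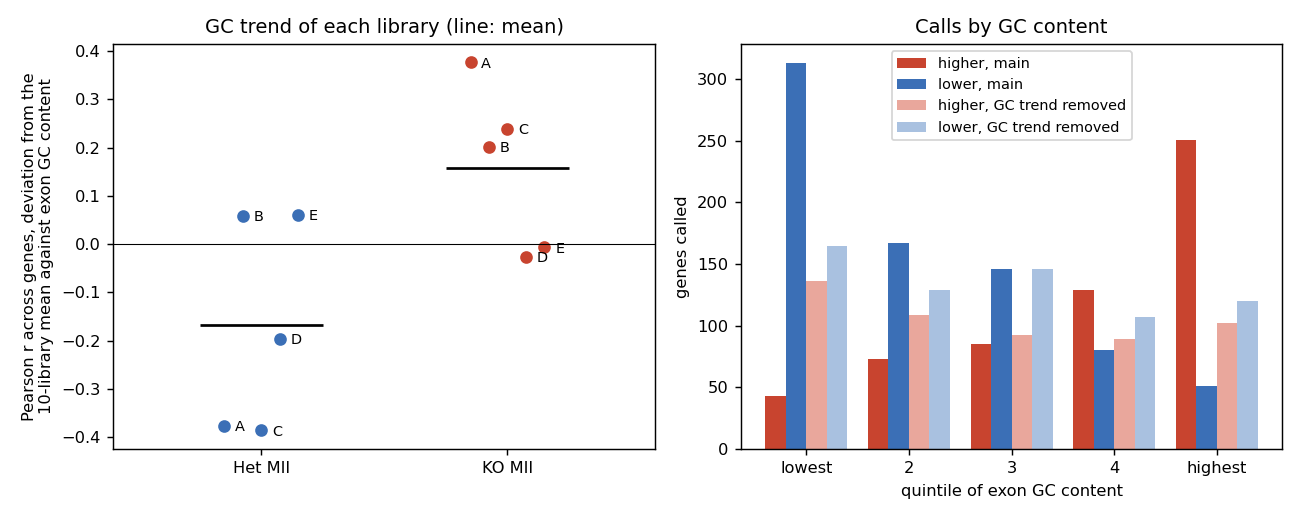
Left, correlation across genes (no unit) of each MII library's deviation from the 10-library mean with exon GC content, points lettered by replicate and lines at the group means of -0.168 (Het) and 0.157 (KO). Right, number of genes called higher or lower in KO libraries in each quintile of GC content, before and after the trend was removed: the GC-poorest quintile held 313 falls and 43 rises, and after removal 165 and 136.

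Between the genotypes, 1352 genes (12.9% of 10515) were called, meaning an adjusted p under 0.05 in limma and more than 1.5-fold change on the log2(FPKM + 0.1) scale. The level rose in 585 (5.56%) and fell in 767 (7.29%) of the libraries labelled KO. Most changes were small: 928 of the calls (68.6%) were below 2-fold, while 27 rises and 13 falls were over 4-fold. The libraries of the genotypes did not overlap in 1712 genes (16.3% of those tested), of which 912 were called, and 766 calls held without each library in turn. A few genes passed the filter on low values through only 1 genotype and could be called in only 1 direction: 33 were under 0.1 FPKM in all Het libraries, of which 21 were called higher, and 29 were under it in all KO libraries, of which 19 were called lower. The split between rises and falls depended on scaling, since it was 786 and 591 with the values as deposited and 1111 and 478 with libraries set to the same sum, settings that moved the median of all genes from 0.01 to 0.09 and 0.15 on the log2 scale. The 0.1 added before the logarithm matters for scarce genes. With a pseudocount of 1, which shrinks their differences by construction, 28 of the 107 called genes tabulated for the text were under 1.5-fold (0.20 to 0.58 in size): Arpp19, Barx1, Cct4, Cdc25b, Cenpc1, Dkc1, Eef2, Fzr1, Gapdh, Hes1, Hist1h1d, Hmgn3, Il20, Khdc3, Lef1, Mrpl50, Nfe2l2, Pabpc1, Pdia6, Pgam1, Pkm, Polr1c, Rhob, Rpl26, Suclg1, Ybx2, Zfp946 and Zfp977. Their adjusted p values were at most 0.0204. Of the genes added later, Cyp51, Keap1, Pramef12, Prdx6, Ski, Sohlh2, Srebf2, Tnfsf11, Tpm4 and Zfp282 were under it too (0.11 to 0.55 in size).

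Abundant RNAs were called more often than scarce ones, but the 0.1 added before the logarithm understates the change of scarce genes. Mitochondrial mRNAs, described below, were among the abundant falls. Of the 144 genes above 100 FPKM, 25% were called, 26 of them lower and 10 higher, and of the 6132 genes under 1 FPKM 11% were called, 345 lower and 327 higher. Protein-coding genes gave 449 rises and 537 falls among 7837 tested. Long noncoding RNAs gave 46 rises and 96 falls among 735, and snoRNAs 4 rises and no fall among 24. Among the called genes, those of low GC content were mostly falls and those of high GC content mostly rises. The mean GC content was 45.0% in falls, 52.0% in rises and 48.5% in genes not called. With the GC trend of each library removed, 1195 of 10442 genes (11.4%) were called, 528 higher (5.06%) and 667 lower (6.39%), and 955 of the 1338 calls that could be compared were called in both fits, 392 higher and 563 lower. Over the 4 libraries with little GC trend, 1330 of the 1352 calls (98.4%) kept their sign and 667 (49.3%) also exceeded 1.5-fold. The 4 libraries are part of the whole comparison, so this is not independent of it. With 2 libraries a group limma called 0 genes in them, and 1999 genes had an unadjusted p under 0.05. The counts of each gene list below are to be read against the 12.9% called, 5.56% higher and 7.29% lower, of all tested genes, and counts at an unadjusted p under 0.05 against the 37.1% (3898) of all tested genes that had one.

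**Figure D2:**
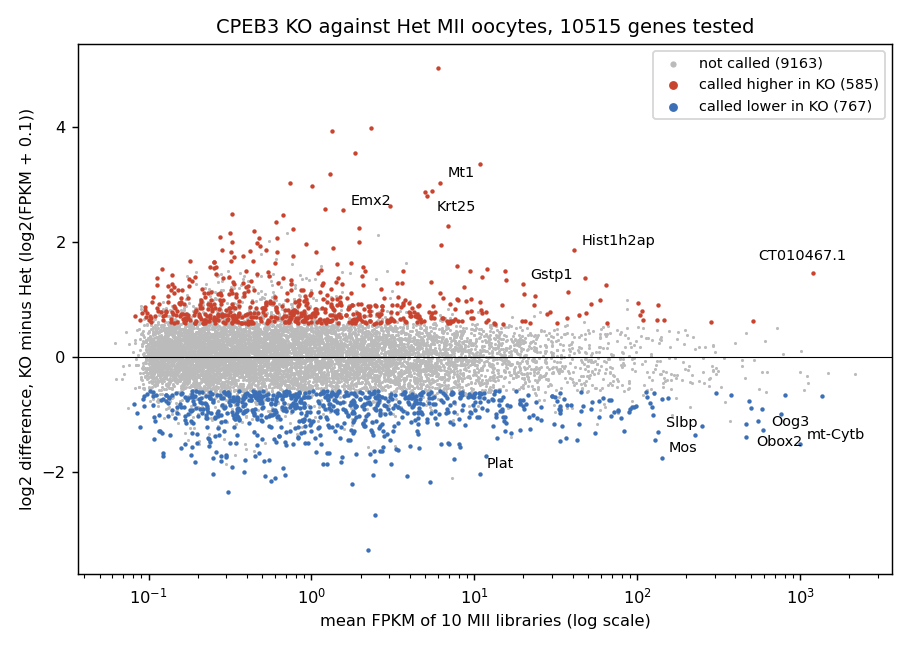
Log2 difference (KO minus Het, log2(FPKM + 0.1) scale) of each of the 10515 tested genes against its mean FPKM in the 10 MII libraries (log axis), with 585 rises in red, 767 falls in blue and genes not called in grey. Among named genes, Mt1, Krt25 and Emx2 stand high at modest levels, and the most abundant called genes, such as mt-Cytb and Oog3, mostly lie below 0.

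The 10 largest falls were chosen among called genes with at least 5 FPKM in the higher genotype, no overlap of the libraries and a call also without the GC trend, leaving out genes the study names as candidates and genes described earlier. Among them Plat had the narrowest error. Plat (chr8:22757727-22782845) encodes tissue plasminogen activator, a secreted protease whose mRNA is stored in the growing oocyte and translated on maturation. Its level was 15.1, 20.8, 16.4, 16.4 and 16.7 FPKM in Het libraries A to E and 4.04, 4.08, 4.75, 4.51 and 4.63 FPKM in KO libraries. All KO libraries were far below the lowest Het library, and the means were 3.88-fold apart (17.1 ± 2.14 against 4.40 ± 0.324 FPKM, log2 difference -2.03, SE 0.0955, adjusted p = 5.42e-06). The difference was -1.96 with the GC trend removed and -1.96 over the 4 libraries.

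Mos (chr4:3870657-3872106), whose kinase starts the MAP kinase cascade that holds the oocyte in metaphase II, was at 157, 266, 170, 241 and 234 FPKM in Het libraries A to E. In KO libraries it was at 63.2, 50.5, 82.9, 65.8 and 75.2 FPKM. The groups did not overlap, as the choice required, and the log2 difference was -1.75 (SE 0.158, adjusted p = 0.000155), -1.90 with the GC trend removed and -1.78 over the 4 libraries.

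The other large falls mixed coding and noncoding genes. AU023070, a long intergenic noncoding RNA, had the largest of the 10 falls chosen, from 8.63 ± 1.38 to 1.98 ± 0.387 FPKM (log2 difference -2.17, SE 0.161, adjusted p = 6.18e-05), and the 4 libraries gave -2.18. Cldn8, a claudin of tight junctions, fell from 11.4 ± 1.61 to 3.55 ± 0.684 FPKM (-1.77, SE 0.158, adjusted p = 0.000155). Susd3, which encodes a membrane protein with a sushi domain, fell from 5.90 ± 0.656 to 2.15 ± 0.569 FPKM (-1.55, SE 0.189, adjusted p = 0.000663). Groups without overlap were a condition of the choice, for all 10 falls and for the 10 rises below. The X-linked Arxes1 fell from 6.62 ± 1.58 to 2.45 ± 1.15 FPKM (-1.59, SE 0.317, adjusted p = 0.00814), but by -0.73 over the 4 libraries. The remaining 4 of the 10 largest falls were pseudogenes (Gm15801, Gm13041, Gm28439 and Gm3089, -1.73 to -1.52), whose reads may be shared with near-identical copies. Over the 4 libraries Gm15801 gave -0.59, Gm13041 -1.32, Gm28439 -1.14 and Gm3089 -0.80, while Cldn8 gave -1.60 and Susd3 -1.29. Gm15801 was no longer called without Het A or C or without KO A or C (adjusted p = 0.0507 to 0.0609).

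Of the 10 rises chosen by the same rule, Mt1 had the largest. Mt1 (chr8:94179082-94180328) encodes metallothionein 1, a small protein that binds zinc and copper. It was at 1.06, 1.37, 1.01, 0.855 and 1.70 FPKM in Het libraries A to E and at 13.2, 9.52, 13.4, 10.2 and 9.37 FPKM in KO libraries. Each KO library exceeded the highest Het library several-fold, and the means were 9.29-fold apart (log2 difference 3.04, SE 0.160, adjusted p = 7.23e-06). It was 2.90 with the GC trend removed and 2.65 over the 4 libraries.

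Krt25 (chr11:99315516-99322952), a type I keratin known from the inner root sheath of hair, was at 1.05, 1.21, 0.807, 1.16 and 1.5 FPKM in Het libraries and at 9.34, 8.96, 11.5, 9.34 and 6.46 FPKM in KO libraries. The groups lay well apart (7.97-fold in means, log2 difference 2.80, SE 0.151, adjusted p = 7.23e-06), also over the 4 libraries (2.48).

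Both pi-class glutathione S-transferases, enzymes that couple glutathione to electrophiles, rose. Gstp1 went from 9.16, 13.3, 9.91, 11.6 and 11.2 FPKM in Het to 30.2, 29.2, 33.4, 23.1 and 27.0 FPKM in KO libraries A to E (log2 difference 1.27, SE 0.10, adjusted p = 7.56e-05). Gstp2 went from 1.92, 2.52, 1.62, 2.79 and 3.01 FPKM to 9.91, 13, 10.2, 8.14 and 8.90 FPKM (1.95, SE 0.154, adjusted p = 7.56e-05). In neither gene did the groups overlap, which the rule required of Gstp2, and over the 4 libraries the differences were 1.07 and 1.64. Since the genes lie side by side on chromosome 19 and end in the same 3′UTR shown above, how much each rose on its own is uncertain.

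Further large rises were in small or repeated genes. Rpl41, the smallest ribosomal protein gene, rose from 3.80 ± 1.61 to 11.8 ± 2.77 FPKM (log2 difference 1.58, SE 0.257, adjusted p = 0.00288), by 0.85 over the 4 libraries. Hspb1, the small heat shock protein HSP25, rose from 4.72 ± 1.6 to 14.2 ± 4.17 FPKM (1.49, SE 0.230, adjusted p = 0.00212) together with its processed pseudogene Hsp25-ps1 (1.5, SE 0.206, adjusted p = 0.00126), by 0.83 and 1.15 over the 4 libraries, and reads of the pair may be shared. The processed pseudogene Gm8451 rose from 2.17 ± 0.673 to 11.5 ± 2.59 FPKM (2.28, SE 0.223, adjusted p = 0.000215), and by 2.39 over the 4 libraries. The snoRNA Gm24616 rose by 1.54 (SE 0.314, adjusted p = 0.00887), but its KO libraries spread from 8.88 to 38.4 FPKM against 4.55 to 5.84 FPKM in Het, and the 4 libraries gave 0.79. The vault RNA Vaultrc5 was at 0 to 1.36 FPKM in Het and 2.56 to 10.4 FPKM in KO libraries (2.63, SE 0.705, adjusted p = 0.0254), and it was not called without Het A or without KO A or B (adjusted p = 0.0504 to 0.0556), while the 4 libraries gave 3.36.

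**Figure D3:**
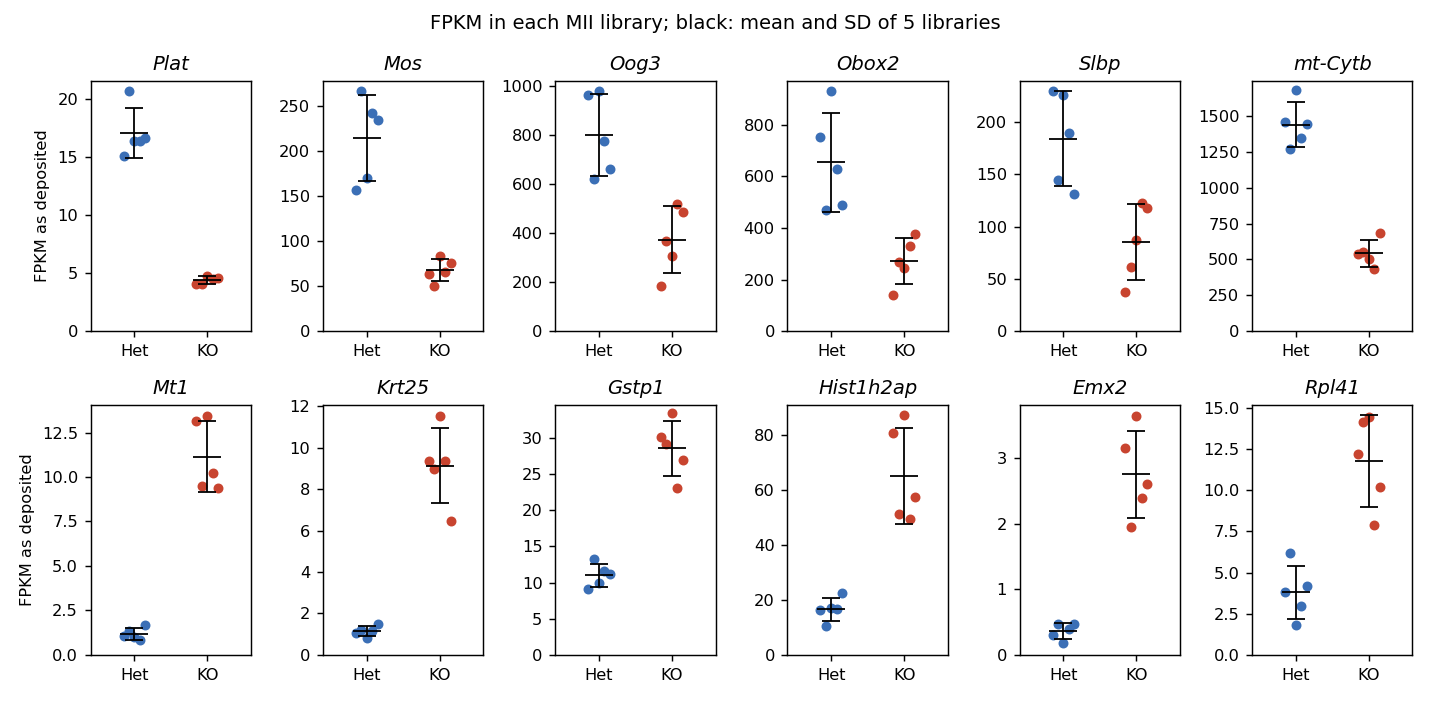
FPKM as deposited in each MII library for 12 genes, with the 5 Het libraries in blue, the 5 KO libraries in red and black bars for mean and SD; every y axis starts at 0. Plat, Mos and mt-Cytb keep a wide gap between groups, Slbp and Obox2 nearly touch, and the 6 genes of the lower row lie higher in every KO library.

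The mitochondrial genome gave the most uniform group of falls. It encodes 13 proteins of the respiratory chain and ATP synthase and 2 ribosomal RNAs. Of the 13 mRNAs, 10 fell and none rose, their groups not overlapping in those 10, with log2 differences of the called mRNAs from -1.52 to -0.63 and a median of -1.05 over the 13 against 0.01 over all tested genes. The smallest of these falls, mt-Nd2, was not called without Het A, C or D or without KO A, C or D (log2 difference -0.64 to -0.50). Their sum was 5641 to 7031 FPKM in Het and 2521 to 4414 FPKM in KO libraries. mt-Cytb, a subunit of complex III, was at 1459, 1270, 1681, 1346 and 1441 FPKM in Het and at 538, 552, 502, 436 and 685 FPKM in KO libraries A to E. These ranges lay far apart (log2 difference -1.52, SE 0.152, adjusted p = 0.000218). The complex I subunit mt-Nd5 fell from 184 ± 14.8 to 74.2 ± 19.3 FPKM (-1.44, SE 0.179, adjusted p = 0.000725), mt-Nd4 fell by 1.36 on the log2 scale, mt-Atp6 of the ATP synthase by 0.99 and mt-Co3 of complex IV by 0.89.

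The other mitochondrial RNAs did not pass the test. The mRNA mt-Nd3 was at 129 ± 11.9 FPKM in Het and 134 ± 32.3 FPKM in KO libraries (log2 difference -0.07, adjusted p = 0.785), and mt-Co2 at 709 ± 77.6 and 515 ± 136 FPKM (-0.60, adjusted p = 0.0528). The short mt-Nd4l had the largest difference of the 13 but a wide spread, at 10.7 ± 5.94 and 3.97 ± 3.98 FPKM (-2.10, adjusted p = 0.114). The ribosomal RNA mt-Rnr1 was at 329 ± 115 and 461 ± 305 FPKM (0.25, adjusted p = 0.607) and mt-Rnr2 at 1141 ± 256 and 1043 ± 510 FPKM (-0.33, adjusted p = 0.387). The 13 mRNAs have a low GC content (median 37.1%), and with the GC trend removed 7 were called, all lower, with a median of -0.61. The count was 7 to 9, all lower, with the values as deposited, the same sum or quantile scaling, and over the 4 libraries the 10 called mRNAs differed by -1.26 to -0.44, with a median of -0.72 over the 13. Of 73 nuclear genes of the respiratory chain and ATP synthase 2 rose and 2 fell (median 0.13, and -0.16 over the 4 libraries). One of the falls was Cycs, the electron carrier cytochrome c, from 13.9 ± 0.830 to 9.08 ± 0.905 FPKM (-0.71, SE 0.0830, adjusted p = 0.000546), which at -0.48 was under 1.5-fold with the GC trend removed. Fewer mitochondrial genomes and less RNA per genome cannot be told apart here.

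Of 13 tested genes of glycolysis 3 rose and none fell (median 0.24, and -0.00462 over the 4 libraries): Gapdh from 0.551 ± 0.166 to 1.29 ± 0.338 FPKM (log2 difference 1.02, adjusted p = 0.00515), Pgam1 (0.85, adjusted p = 0.00486) and Pkm, pyruvate kinase (0.74, adjusted p = 0.0217). Pkm was not called without Het A or KO C (adjusted p = 0.0540 in both cases), nor with the GC trend removed (0.51), where 2 of the 13 rose. These levels are low, and oocytes are known to take up pyruvate made by cumulus cells. Of 21 genes of pyruvate use and the citric acid cycle 1 rose and 2 fell, among them Suclg1, a subunit of succinyl-CoA ligase (-0.71, adjusted p = 0.00365). In cholesterol synthesis and uptake 2 of 15 rose and 2 fell. The falls were Srebf2, the transcription factor of the pathway (-0.93, adjusted p = 0.0378), and Cyp51 (-0.96, adjusted p = 0.000989), which passed the filter through the Het libraries alone. Srebf2 was called without KO A or C, but not without any other single library (adjusted p = 0.0518 to 0.0797), and the 4 libraries gave -1.76. Over those Gapdh gave 0.58 and Pkm 0.46.

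Replication-dependent histones package new DNA in S phase, and their mRNAs end in a stem-loop instead of a poly(A) tail. The kit primes on poly(A), so more histone RNA and more histone RNA with a tail cannot be told apart here. Of 32 tested core histone genes 8 rose and none fell, with log2 differences of the 32 from -0.59 to 5.03. The median was 0.46 (0.30 with the GC trend removed, where 7 rose and none fell, and 0.24 over the 4 libraries). Hist1h2ap (chr13:21833026-21833508), an H2A gene, was at 16.5, 10.7, 17.0, 16.7 and 22.5 FPKM in Het and 80.6, 51.4, 87.2, 49.3 and 57.5 FPKM in KO libraries A to E. All KO libraries were above all Het libraries, as the rule for the largest rises required. The log2 difference was 1.86 (SE 0.216, adjusted p = 0.000530), and 1.82 over the 4 libraries. The H4 genes Hist1h4d (1.56, SE 0.272, adjusted p = 0.00417) and Hist1h4a (1.5, SE 0.305, adjusted p = 0.00854) rose as well, by 1.34 and 1.15 over the 4 libraries. Core histone genes resemble each other closely, so reads may be split between copies. The stem-loop consensus was found in the 3′UTR of 23 of 29 core histone genes with one, and of 5 of the 8 that rose, against 0.205% of all 20950 annotated 3′UTRs.

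Of 8 tested linker histones, which bind between nucleosomes, 4 rose and none fell (median 0.81, and 0.83 over the 4 libraries), and with the GC trend removed 4 rose and 1 fell (median 0.63). Hist1h1a rose from 64.7 ± 6.78 to 137 ± 37.9 FPKM (log2 difference 0.95, SE 0.139, adjusted p = 0.00174). Hist1h1d rose from 0.188 ± 0.0521 to 0.623 ± 0.167 FPKM (1.24, SE 0.179, adjusted p = 0.00161), and Hist1h1b was listed at 0 in all Het libraries and at 0.185 to 1.52 FPKM in KO libraries (adjusted p = 0.00514). Hist1h1b passed the filter through the KO libraries alone, so it could only be called as a rise, and 3 of the 7 other linker histones rose. The oocyte linker histone H1foo was at 641 and 472 FPKM on average and was not called (log2 difference -0.56, under 1.5-fold). The replacement histone H3f3a, which needs no replication, fell from 4.31 ± 0.439 to 2.52 ± 0.473 FPKM (-0.86, SE 0.138, adjusted p = 0.00271).

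Slbp encodes the protein that binds the histone stem-loop. It was at 230, 145, 226, 190 and 131 FPKM in Het and 37.4, 61.3, 87.0, 122 and 118 FPKM in KO libraries A to E, so that the lowest Het library lay just above the highest KO library. Its log2 difference was -1.30 (SE 0.353, adjusted p = 0.0266). It was not called without Het A, C or D or without KO B (adjusted p = 0.0568 to 0.0663), and the 4 libraries gave -0.15.

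Among other chromatin proteins, Hmgn3, a nucleosome-binding high mobility group protein, rose from 0.0617 ± 0.0227 to 0.589 ± 0.174 FPKM (log2 difference 2.00, SE 0.197, adjusted p = 0.000217), and by 2.34 over the 4 libraries, but by 0.55 and under 1.5-fold with a pseudocount of 1. It passed the filter through the KO libraries alone. Of 11 such genes 2 rose, with Hmgn3, and none fell, and with the GC trend removed 3 rose and 1 fell. The polycomb accessory protein Phf1 rose from 3.75 ± 1.58 to 8.48 ± 2.51 FPKM (1.11, SE 0.274, adjusted p = 0.0186), by 0.26 over the 4 libraries, and was the only call among 24 polycomb genes. The heterochromatin protein Cbx1 rose by 0.66 (SE 0.147, adjusted p = 0.0120), which was under 1.5-fold without KO A (0.55) and over the 4 libraries (0.24). Of 74 subunits of RNA polymerase II and general transcription factors 6 rose and 4 fell, a share (13.5%) near that of all genes.

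Oocyte-specific gene families held many falls. Oog, Oosp and Pramel genes and a cluster of Fbxw genes are expressed mainly in oocytes. Of 26 tested 8 fell and 2 rose, with a median of -0.54 (-0.41 with the GC trend removed, with the same counts of 8 and 2), and -0.11 over the 4 libraries, and this list had a median GC content of 44.0%. Oog3, a gene of the PRAME family, was at 965, 622, 981, 775 and 663 FPKM in Het and 183, 369, 309, 520 and 486 FPKM in KO libraries A to E. The groups did not overlap (log2 difference -1.27, SE 0.307, adjusted p = 0.0174), but the Het libraries with little GC trend, B and E, were the lowest of their group and the KO libraries D and E the highest, and those 4 gave -0.31. Oog1 fell from 60.7 ± 14.7 to 24.0 ± 7.0 FPKM (-1.45, adjusted p = 0.00516) and Oog2 from 17.7 ± 2.74 to 8.17 ± 1.11 FPKM (-1.20, SE 0.166, adjusted p = 0.00128), with -0.51 and -0.72 over the 4 libraries.

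Of the F-box genes, Fbxw20 was at 21.3, 21.5, 23.7, 20.4 and 20.8 FPKM in Het and 8.31, 9.95, 9.36, 9.30 and 10.2 FPKM in KO libraries A to E. All Het libraries lay about 2-fold above the KO libraries, and the log2 difference was -1.29 (SE 0.108, adjusted p = 0.000100), with -1.07 over the 4 libraries. Fbxw18 (-0.93, adjusted p = 0.00174), Fbxw14 (-0.76, adjusted p = 0.0220), Fbxw28 (-0.74, adjusted p = 0.0309) and Oosp3 (-0.97, adjusted p = 0.0326) also fell. The rises were Oas1c, an oocyte member of the oligoadenylate synthetase family, from 31.6 ± 4.72 to 55.9 ± 4.78 FPKM (0.73, SE 0.0819, adjusted p = 0.000452) and Pramef12 (0.62, adjusted p = 0.0250). Without Het A or C none of Fbxw14, Fbxw28, Oosp3 and Pramef12 was called. The last 3 were not called without Het D or KO C either, nor Fbxw28 and Pramef12 without KO A or B. Over the 4 libraries these genes gave -0.20, -0.11, -0.22 and 0.12 in that order, and Fbxw18 gave -0.55. Sequence within each of these families is similar, and reads may be split between members.

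Obox2, Obox7 and Obox1, oocyte homeobox genes of the Obox cluster, were also called lower. Obox2 was at 754, 468, 930, 629 and 490 FPKM in Het and 141, 268, 244, 330 and 375 FPKM in KO libraries A to E. The groups did not overlap, yet the gap narrowed to that between 468 and 375 FPKM (log2 difference -1.39, SE 0.315, adjusted p = 0.0131, -0.40 over the 4 libraries). Obox7 fell by 1.41 (SE 0.337, adjusted p = 0.0167) and Obox1 by 1.10 on the log2 scale (SE 0.319, adjusted p = 0.0338), with -0.31 and -0.12 over the 4 libraries. Obox1 was not called without Het A, C or D or without KO B or C (adjusted p = 0.0603 to 0.0814). With Sohlh2 higher (not called without Het D or KO C), they made 3 falls and 1 rise among 19 oocyte growth factors and transcription factors, while Gdf9, a growth factor for the cumulus cells, was at 306 ± 50.9 and 274 ± 15 FPKM (-0.24, adjusted p = 0.0697).

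Dppa3, which protects the maternal genome from loss of DNA methylation, was among the most abundant falls. It was at 1078, 889, 1054, 914 and 876 FPKM in Het and 480, 649, 685, 750 and 728 FPKM in KO libraries A to E. The groups did not overlap (log2 difference -0.66, SE 0.167, adjusted p = 0.0207), and its pseudogene Dppa3-ps, which may share its reads, gave -0.67. Without Het A, Het C or KO A neither was called (Dppa3 -0.59 to -0.53), Dppa3 was under 1.5-fold with the GC trend removed (-0.58), and neither was called with the values as deposited (Dppa3 -0.56), the same sum (-0.48) or quantile scaling (-0.36, adjusted p = 0.0681), and the 4 libraries gave -0.21 for Dppa3 and -0.26 for Dppa3-ps. Of 17 genes of the subcortical maternal complex and oocyte Nlrp genes 1 rose (Khdc3, 0.63, adjusted p = 0.0195) and 1 fell (Nlrp4b, -0.96, adjusted p = 0.0245). Khdc3 was under 1.5-fold without Het A or D (0.53 and 0.57) and with the GC trend removed (0.39), and Nlrp4b was not called without Het A, C or D or without KO B (adjusted p = 0.0545 to 0.0614). Over the 4 libraries Khdc3 gave 0.24 and Nlrp4b -0.08. Within the zona pellucida and fertilization (10 genes), calcium signalling at fertilization (14), cortical granule exocytosis (12), cAMP and meiotic arrest (14) and Hippo (11) lists limma called 0 genes, and 4, 4, 6, 5 and 4 of them, in that order, had an unadjusted p under 0.05 (37.1% of all tested genes did). For example, Rgs2 was at 429 ± 33.8 and 447 ± 57.2 FPKM.

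Among genes that set the fate of mRNA, of 33 genes of deadenylation and decay limma called 0, and 10 had an unadjusted p under 0.05. Btg4, the adaptor that recruits the deadenylase to maternal mRNA, was at 73.5 ± 19.2 FPKM in Het and 44.2 ± 18.3 FPKM in KO libraries (log2 difference -0.91, SE 0.358, adjusted p = 0.0914), its groups overlapped, and the 4 libraries gave 0.25. Of 24 genes of cytoplasmic polyadenylation and poly(A) binding 1 rose and 2 fell (12.5%, near the share of all genes). Pabpc1, the common poly(A)-binding protein, fell from 0.265 ± 0.0493 to 0.116 ± 0.0290 FPKM (-0.82, SE 0.129, adjusted p = 0.00249), and the nuclear Pabpn1 rose from 7.96 ± 2.76 to 14.4 ± 4.29 FPKM (0.77, SE 0.227, adjusted p = 0.0358). Pabpn1 was not called without Het A, C or D or without KO A, B or C (adjusted p = 0.0705 to 0.0831), was under 1.5-fold with the GC trend removed (0.56), and its difference over the 4 libraries was 0.00. Among 22 genes of mRNA storage Ybx2, the germ cell Y-box protein MSY2, was the only call (0.336 ± 0.0921 to 0.864 ± 0.279 FPKM, 1.04, SE 0.192, adjusted p = 0.00545).

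Of 54 spliceosome genes 6 fell and 2 rose (14.8% called). Snrpd3, a core Sm protein, fell from 19.7 ± 3.11 to 10.1 ± 0.903 FPKM (log2 difference -1.04, SE 0.141, adjusted p = 0.00113), Srsf3 fell (-0.98, SE 0.230, adjusted p = 0.0155) and Snrnp70 rose (0.68, SE 0.106, adjusted p = 0.00237), though under 1.5-fold with the GC trend removed (0.45). With the values as deposited the list gave 3 rises and 3 falls and with the same sum 5 rises and 3 falls, settings that shifted all genes upward. Srsf3 gave -0.43 and Snrnp70 0.36 over the 4 libraries.

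In the translation machinery, cytosolic ribosomal protein genes rose where called, 8 of 73 with none lower (median 0.27, and 0.03 over the 4 libraries). Beside Rpl41, Rplp1 of the ribosomal stalk rose from 3.96 ± 1.13 to 8.79 ± 2.51 FPKM (log2 difference 1.03, SE 0.198, adjusted p = 0.00660) and Rpl26 by 0.97 (SE 0.221, adjusted p = 0.0136). With the GC trend removed 8 rose and 2 fell. Of 74 mitochondrial ribosomal proteins 2 rose and 6 fell, such as Mrpl50 (-0.93, SE 0.154, adjusted p = 0.00331) and Mrps36 (-0.82, SE 0.154, adjusted p = 0.00606), a split that became 3 and 3 with the same sum and 0 and 7 with the GC trend removed. Elongation factor Eef2 rose from 3.27 ± 0.882 to 5.66 ± 0.945 FPKM (0.70, adjusted p = 0.00941), but was under 1.5-fold with the GC trend removed (0.48). Of 48 initiation factors 2 rose, 1 being Eif2b4 of the exchange factor for eIF2 (0.93, SE 0.224, adjusted p = 0.0166). Eif2b4 gave 0.24 over the 4 libraries, Eef2 0.33, Rplp1 0.64, Rpl26 0.54 and Mrpl50 -0.54. Of 24 ribosome biogenesis genes 3 fell, with Polr1c, a subunit of RNA polymerases I and III, going from 0.820 ± 0.135 to 0.314 ± 0.0237 FPKM (-1.22, SE 0.137, adjusted p = 0.000452). Another was Dkc1, the pseudouridine synthase dyskerin (-0.60, SE 0.108, adjusted p = 0.00526), which lay just under 1.5-fold without Het C or E or without KO C or D (-0.58 to -0.55), and with the GC trend removed (-0.46).

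Of 26 genes of MPF (maturation promoting factor, the kinase of M phase) and the metaphase arrest 3 rose and 3 fell, and with the GC trend removed 1 rose and 3 fell. Beside Mos, the falls were Ccnb1, its cyclin, from 160 ± 33.7 to 89.1 ± 31.2 FPKM (log2 difference -1.0, adjusted p = 0.0403) and Arpp19, an inhibitor of the phosphatase that opposes MPF, from 1.85 ± 0.216 to 1.01 ± 0.169 FPKM (-0.91, SE 0.154, adjusted p = 0.00358). The rises were Cdc25b, the phosphatase that activates MPF, from 0.200 ± 0.0228 to 0.569 ± 0.139 FPKM (1.06, SE 0.138, adjusted p = 0.000901), and 2 kinases downstream of Mos, of which Mapk3 (ERK1) went from 2.37 ± 0.632 to 4.30 ± 0.586 FPKM (0.77, SE 0.142, adjusted p = 0.00578), under 1.5-fold with the GC trend removed (0.54). In the anaphase-promoting complex and SCF list (25 genes) the subunit Cdc26 fell from 2.83 ± 0.228 to 1.33 ± 0.309 FPKM (-1.16, SE 0.161, adjusted p = 0.00134) and the activator Fzr1 rose from 0.293 ± 0.0400 to 0.578 ± 0.123 FPKM (0.69, SE 0.131, adjusted p = 0.00607). Fzr1 was under 1.5-fold with the GC trend removed (0.43). Ccnb1 was not called without Het A, C or D or without KO B or C (adjusted p = 0.0747 to 0.0949). In the 4 libraries Ccnb1 differed by -0.05, Arpp19 by -0.37, Mapk3 by 0.40 and Fzr1 by 0.46.

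Of 31 kinetochore, centromere and spindle checkpoint genes 3 fell and 1 rose (12.9% called), and 3 fell and none rose with the GC trend removed. Cenpc1, which links centromeric chromatin to the kinetochore, fell from 0.592 ± 0.0660 to 0.280 ± 0.0431 FPKM (log2 difference -0.95, SE 0.138, adjusted p = 0.00174). Dsn1 (-1.05, adjusted p = 0.0458) and Ndc80 (-0.95, adjusted p = 0.0479) were called only narrowly. Dsn1 was not called without Het A, B, C or D or without KO B or C (adjusted p = 0.0522 to 0.104). Ndc80 was not called without Het A, C or D or without KO A, B or C (adjusted p = 0.0701 to 0.112), and the 4 libraries gave -0.08 for Dsn1 and 0.03 for Ndc80. In cohesin and condensin 3 of 20 fell and 1 rose, which became 1 and 1 with the GC trend removed: Smc4 of condensin fell from 23.6 ± 0.900 to 14.3 ± 1.48 FPKM (-0.82, SE 0.102, adjusted p = 0.000730, and -0.58 with the GC trend removed), with Smc3 of cohesin lower by 0.92 (SE 0.192, adjusted p = 0.00977). For Smc4, Smc3 and Cenpc1 the differences over the 4 libraries were -0.54, -0.29 and -0.61. Of 50 spindle genes 3 rose and 1 fell, and Tubb3, a beta-tubulin best known from neurons, rose from 14.5 ± 4.44 to 32.5 ± 8.30 FPKM (1.07, SE 0.201, adjusted p = 0.00602, 0.42 over the 4 libraries).

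Genes against oxidative stress changed in both directions, 4 up and 3 down of 23. The rises included Mt1, Gstp1 and Gstp2 and also Keap1 (log2 difference 0.86, adjusted p = 0.0276), the protein that sends NRF2 to degradation. The falls were Nfe2l2, which encodes NRF2 itself, from 1.17 ± 0.189 to 0.637 ± 0.0359 FPKM (-0.86, SE 0.137, adjusted p = 0.00260), Prdx6 (-0.92, adjusted p = 0.00398) and the peroxidase Gpx1 (-0.78, adjusted p = 0.0280). Keap1 was not called without Het A, C or D or without KO A or C (adjusted p = 0.0555 to 0.0651), nor Gpx1 without Het B, C or E or without KO B or E (adjusted p = 0.0504 to 0.0533). With the 4 libraries alone Keap1 gave 0.15, Nfe2l2 -0.57 and Gpx1 -1.13. Among 25 chaperones Hspb1 rose and 3 fell. Hspa8, the constitutive HSC70, was at 16.5, 17.7, 18.5, 20.1 and 16.8 FPKM in Het and 9.72, 7.82, 10.1, 10.4 and 8.72 FPKM in KO libraries A to E. Its groups lay apart (-1.03, SE 0.107, adjusted p = 0.000263). Cct4 of the chaperonin fell by 0.77 (SE 0.125, adjusted p = 0.00289), with -0.47 over the 4 libraries. In the unfolded protein response 1 of 22 rose and 2 fell, with Pdia6 from 8.57 ± 1.01 to 5.85 ± 0.478 FPKM (-0.64, SE 0.0755, adjusted p = 0.000572). In protein turnover 1 of 39 proteasome genes rose and 3 fell, among them Psma1 (-0.91, SE 0.201, adjusted p = 0.0120) and Psmg1 (-0.74, SE 0.0924, adjusted p = 0.000741). Of 25 autophagy and lysosome genes 2 rose and 1 fell (median 0.17). The fall was Map1lc3b, by 0.91 on the log2 scale (SE 0.200, adjusted p = 0.0120). Over the 4 libraries Psma1 gave -0.35 and Map1lc3b -0.36. Of 33 DNA repair genes 1 fell and none rose.

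Of 14 tested homeobox genes of development, a list without the Obox genes above, 5 rose and none fell (median 0.47, and 0.30 over the 4 libraries). Of the 90 listed, 18 were at 0 in every library. Emx2 (chr19:59458372-59465358), known from the forebrain and the urogenital tract, was at 0.308, 0.475, 0.175, 0.390 and 0.475 FPKM in Het and 3.16, 1.96, 3.65, 2.40 and 2.62 FPKM in KO libraries A to E. The lowest KO library was over 4 times the highest Het library (log2 difference 2.56, SE 0.204, adjusted p = 7.56e-05, 2.22 over the 4 libraries). Barx1, of the stomach and jaw, rose from 0.218 ± 0.0812 to 0.859 ± 0.307 FPKM (1.48, SE 0.245, adjusted p = 0.00314). With the GC trend removed 3 of the homeobox genes rose. Sox8 fell from 1.55 ± 0.306 to 0.684 ± 0.267 FPKM (-1.22, SE 0.225, adjusted p = 0.00559), while 4 other Forkhead, Sox, Gata and Klf factors of 25 rose. With the GC trend removed that list gave 1 rise and 2 falls, so the direction of its calls depended on the trend. Its median was 0.23, then 0.11 with the trend removed and 0.05 over the 4 libraries.

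Numbered Zfp zinc finger genes, a large class of DNA-binding proteins of which many silence repeats, leaned the other way. Of 180 tested 34 fell and 4 rose, 1 of the rises (Zfp282) having passed the filter through the KO libraries alone (median -0.24, median GC content 43.2%), and with the GC trend removed 25 fell and 7 rose (median -0.11). Zfp946 fell from 0.447 ± 0.0642 to 0.136 ± 0.0467 FPKM (log2 difference -1.29, SE 0.162, adjusted p = 0.000738), Zfp977 by 1.10 (SE 0.148, adjusted p = 0.00113) and Zfp639 by 1.03 on the log2 scale (SE 0.127, adjusted p = 0.000725). Over the 4 libraries these gave -1.17, -0.95 and -1.03, and the median of the list was -0.05.

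The signalling lists described here held a few calls each. In the TGF-beta and BMP list 3 of 16 rose and none fell: Id2 from 0.719 ± 0.169 to 1.92 ± 0.677 FPKM (log2 difference 1.18, SE 0.222, adjusted p = 0.00606) and Id3 from 0.931 ± 0.249 to 2.05 ± 0.492 FPKM (0.96, SE 0.183, adjusted p = 0.00635), both inhibitors of helix-loop-helix factors induced by BMP, with Ski. With the GC trend removed 2 of the 16 rose. In Wnt signalling 2 of 13 rose, the target and inhibitor Axin2 (0.88, SE 0.189, adjusted p = 0.0104) and the DNA-binding partner of beta-catenin Lef1 (0.67, SE 0.0952, adjusted p = 0.00145), and with the GC trend removed 2 rose and 1 fell. Over the 4 libraries Axin2 gave 0.35 and Id3 0.64, and the median of the Wnt list was -0.22 against 0.17. In Notch 2 of 15 rose and 1 fell, which became 1 and 2 with the GC trend removed: the repressor Hes1 rose from 0.0481 ± 0.0247 to 0.307 ± 0.125 FPKM (1.37, SE 0.208, adjusted p = 0.00202), having passed the filter through the KO libraries alone, and its relative Bhlhe41 fell from 1.15 ± 0.232 to 0.384 ± 0.170 FPKM (-1.5, SE 0.210, adjusted p = 0.00135, -1.83 over the 4 libraries). Of 17 cytokines, chemokines and receptors 2 rose and 4 fell, 1 of the falls (Tnfsf11, chosen for this) having passed the filter through the Het libraries alone. The chemokine Ccl2 was at 0.101 to 0.208 FPKM in Het libraries and at 1.34, 0.376, 1.20, 1.16 and 1.33 FPKM in KO libraries A to E (2.08, SE 0.308, adjusted p = 0.00181), and Il20 fell from 0.515 ± 0.125 to 0.205 ± 0.0656 FPKM (-1.08, SE 0.173, adjusted p = 0.00266). Of 40 genes of actin and cortical polarity 4 rose and 4 fell (2 and 4 with the GC trend removed), 1 of the falls (Tpm4) having passed the filter through the Het libraries alone and not being called without Het B or C or without KO A, C or E or with the GC trend removed (-0.55), among them the actin-binding peptide Tmsb4x (2.58, adjusted p = 0.0111), radixin (Rdx, 42.5 ± 4.52 to 24.3 ± 5.14 FPKM, -0.92, SE 0.176, adjusted p = 0.00655, -0.33 over the 4 libraries) and the small GTPase Rhob (-1.36, SE 0.162, adjusted p = 0.000583).

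Of 9 mRNAs listed as neuronal targets of CPEB3, 6 were too low to test, and of the other 3, 1 fell and none rose. The fall was Sumo2, a small ubiquitin-like modifier, from 12 ± 1.27 to 6.66 ± 1.38 FPKM (log2 difference -0.96, SE 0.163, adjusted p = 0.00374, -0.56 over the 4 libraries).

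The most abundant rises were mainly noncoding. How well a kit that primes on poly(A) measures ribosomal RNA, snoRNAs or vault RNA was not tested. CT010467.1, annotated as ribosomal RNA, was at 399, 931, 294, 479 and 775 FPKM in Het and 3828, 1372, 1830, 929 and 1054 FPKM in KO libraries A to E. Het B and KO D overlapped (log2 difference 1.47, SE 0.379, adjusted p = 0.0220). It was not called without Het A, C or D or without KO C (adjusted p = 0.0504 to 0.0550), and the 4 libraries gave 0.27. The unclassified transcripts Gm36958 (0.62) and Gm45553 (0.64), the long noncoding RNA Gm37724 (0.92) and the processed pseudogene Gm4928 (0.61) were the others. Gm36958 and Gm45553 were not called without Het A, C or D or without KO A or C (log2 difference 0.48 to 0.63), and Gm4928 was under 1.5-fold without Het D or without KO A or B (0.55 to 0.57). Gm37724 went from 86.7 ± 13.2 to 183 ± 65.7 FPKM (SE 0.192, adjusted p = 0.00980). For Gm36958, Gm45553, Gm37724 and Gm4928 the 4 libraries gave 0.22, 0.12, 0.39 and 0.38.

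**Figure D4:**
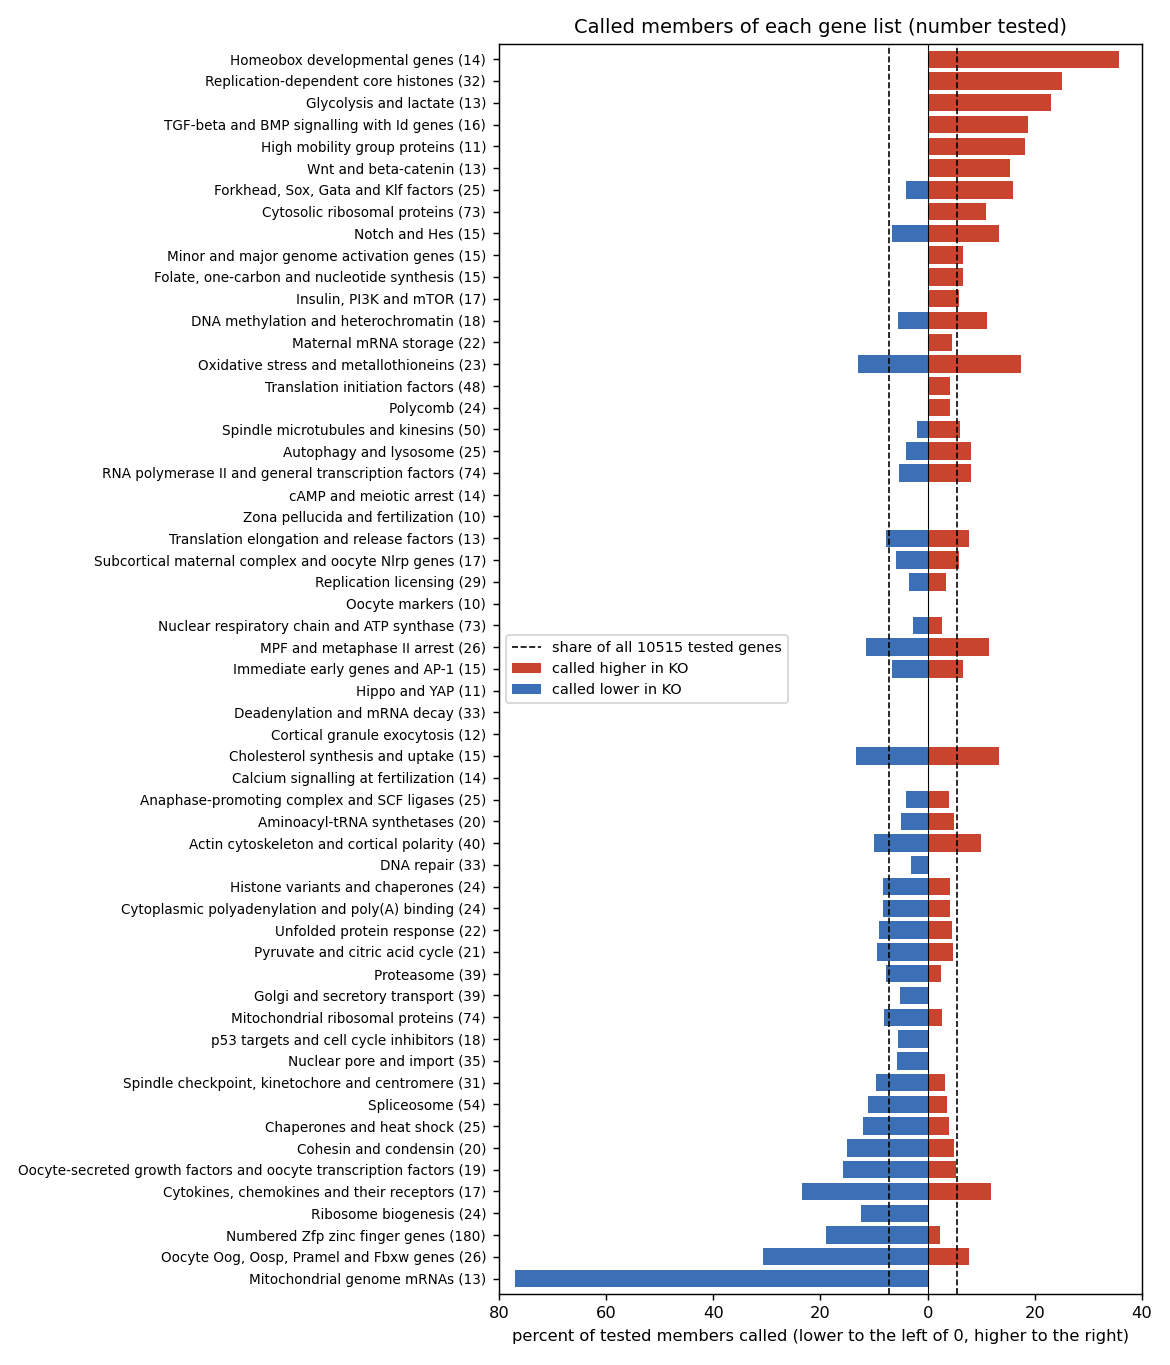
Percent of the tested members of each of 57 gene lists with at least 10 tested members that were called lower (blue, to the left of 0) or higher (red, to the right), sorted by the share higher minus the share lower, with dashed lines at the 7.29% and 5.56% of all tested genes. Mitochondrial mRNAs, the oocyte gene families and Zfp genes extend to the left, and developmental homeobox (without Obox), core histone and glycolysis genes to the right.

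Of the 57 lists with at least 10 tested members, 31 held calls in both directions, 13 only rises, 6 only falls and 7 no call. The lists were chosen with earlier results of these data known, and their counts are a description.

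The 10 largest rises and 10 largest falls chosen by the rule (means of at least 5 FPKM in the higher genotype) were also read in the 2cell embryos of the series, 5 libraries labelled Het and 4 labelled KO, in a fit of all 19 libraries. In that fit 21.7% of 15786 genes were called in 2cell embryos, and of the 20 genes 7 falls and 3 rises were called in the same direction there. AU023070 was lower at both stages (log2 difference in 2cell embryos -2.39, SE 0.254) and Gstp2 higher at both (1.64, SE 0.163). The differences between the stages were past the test in 8 of the 20 genes, against 8.37% of all genes. Plat had a mean of 0.781 FPKM in Het and 0.837 FPKM in KO 2cell libraries, and its difference was 2.03 higher in 2cell embryos than in oocytes (adjusted p = 7.30e-06). Mos was at 1.82 and 1.96 FPKM (1.75 higher, adjusted p = 0.0176). Both are among the maternal mRNAs that are cleared after fertilization. Mt1, at 695 ± 150 and 713 ± 98.2 FPKM, showed a difference 3.06 lower than in oocytes on the log2 scale (adjusted p = 1.40e-06).

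**Figure D5:**
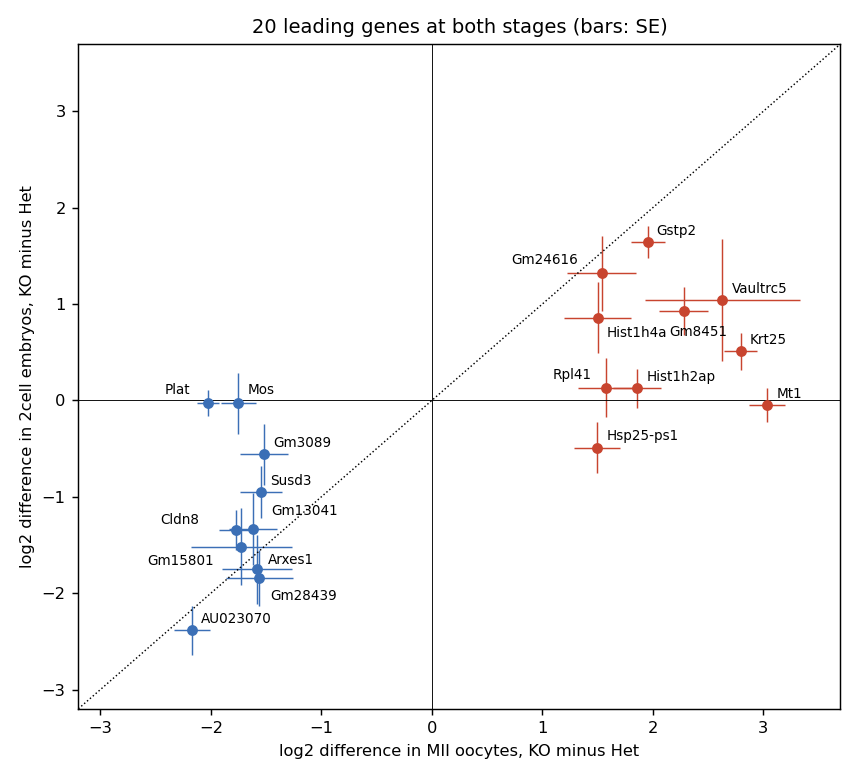
Log2 difference (KO minus Het) in 2cell embryos against that in MII oocytes for the 20 leading genes, with bars for the standard error and a dotted line where both are equal. AU023070 and Gstp2 lie near the line, while Plat, Mos, Mt1 and Hist1h2ap lie near 0 in 2cell embryos.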

How the data were processed

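Libraries, of 5 MII oocytes each by the methods, were made with a SMART-seq v4 kit and sequenced as 150 bp paired ends on a NovaSeq per the labels (the methods name a HiSeq X). According to the methods and the submitters' processing notes, the authors trimmed reads with Trim Galore 0.4.1, mapped them to GRCm38 with HISAT2 2.0.5 and deposited FPKM values per gene made in SeqMonk. The deposited table is called raw counts, but its values are not whole and were read as FPKM, so no count test was used. At the depth given above, a median of 42.2% of the low values came out whole (within 0.05) as fragments, too few to recover counts. At the median depth of 20.9 M, 0.1 FPKM of a gene with 2866 exon bases amounts to only a few fragments. There were 0 columns without a sample.

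Libraries were set to a common scale with trimmed means of log ratios (30% of ratios and 5% of levels trimmed on each side) and log2(FPKM + 0.1) was modelled by genotype with limma 3.58.1 under R 4.3.3 (variance trend on), with Benjamini-Hochberg adjustment over all 10515 genes. The scale understates the change of low genes. GC trends were removed by loess (span 0.5) for genes matched to the annotation. Motifs were read from annotated 3′UTRs of the longest transcript; sequences are from the GRCm38 annotation. Cpeb3 and the GC trend were tested by exact permutation of the genotype labels (two-sided). The members and lists were chosen with earlier results of these data known. Genes named were Cpeb genes, the 10 largest rises and falls without overlap, with at least 5 FPKM and called also without the GC trend (candidates named in the paper or earlier left out), the 5 most abundant calls in each direction, and up to 4 called members of each of 63 lists (else the 2 most abundant). Oog1, Fbxw14, Fbxw28, Oosp3, Pramef12, Ccnb1, Keap1, Gpx1, Prdx6, Srebf2, Cyp51, Tmsb4x, Tnfsf11, Tpm4, Zfp282, Ski, Sohlh2, H1foo, mt-Co2, mt-Nd2, mt-Nd3, mt-Nd4l, mt-Rnr1 and mt-Rnr2 were added after their values were seen. Some genes the rule names are not reported here. The fit was tested on simulated data. Python 3.11.15, numpy 2.4.6, pandas 2.3.3 and matplotlib 3.10.9 were used. Alternatives were other scalings, pseudocounts, filters, weights, trends, a replicate block and each library left out.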

Additional observations from a re-analysis of the deposited data

Results flagged for a closer look

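In 10 of 232 groups of 5 libraries examined (116 genes, both genotypes), 1 library lay far from the other 4, and chance alone does this in about 1 of 20 groups. Higher than the rest of its group were Arxes1 in Het C (9.38 FPKM), Mrps36 in Het B (8.82 FPKM), Plat in Het B (20.8 FPKM), Eif2b4 in KO A (4.38 FPKM), Snrpd3 in KO C (11.7 FPKM) and Zfp946 in KO B (0.220 FPKM). Lower than the rest were Ccl2 in KO B (0.376 FPKM), Dppa3-ps in KO A (786 FPKM), Gm13041 in KO D (1.11 FPKM) and Polr1c in KO C (0.272 FPKM). KO A and KO C also had the highest correlations with GC content of their group, and the part of this in those values was not tested.

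For 8 of the 20 leading genes the genotype difference was not the same in 2cell embryos as in oocytes by limma's interaction term. The 2cell difference minus the MII difference on the log2 scale was -3.06 for Mt1 (adjusted p = 1.40e-06), -2.26 for Krt25 (adjusted p = 7.60e-05), -1.96 for Hsp25-ps1 (adjusted p = 0.00310), -1.70 for Hist1h2ap (adjusted p = 0.00128), -1.42 for Rpl41 (adjusted p = 0.0429) and -1.32 for Gm8451 (adjusted p = 0.0222). It was 2.03 for Plat (adjusted p = 7.30e-06) and 1.75 for Mos (adjusted p = 0.0176). The 6 rises and 2 falls were smaller in 2cell embryos. These genes were chosen for large differences in the MII libraries, so the comparison of stages is not independent of that choice.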

How the results depend on the processing

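The count of calls was 1352 (585 higher, 767 lower) and lay within 1.5 times of this in the settings not named here. With libraries set to the same sum it was 1111 higher and 478 lower, with a pseudocount of 1 it was 480 (156 and 324), and without the fold limit 2246 (1062 and 1184). With fewer genes tested it was 759 (322 and 437) at a mean of at least 1 FPKM and 307 (135 and 172) at 5 FPKM. Leaving out each library gave 942 to 1510 calls (402 to 670 higher, 540 to 840 lower), the fewest without Het C. The 4 libraries with little GC trend, chosen after seeing the data, gave 0 calls (0 higher, 0 lower), with 1999 genes at an unadjusted p under 0.05 and a smallest adjusted p of 0.0810, from 2 libraries a group. There Ndc80 reversed to a log2 difference of 0.0268. Of the 107 called genes in the tables, 89 kept the call without each library in turn, 96 with the GC trend removed and 79 with a pseudocount of 1. With the values as deposited, the same sum or quantile scaling, Dppa3 and its pseudogene, Dkc1 (-0.53 to -0.42) and Pdia6 (-0.58 to -0.46) lost their calls. With the same sum Cycs (-0.53), Psmg1 (-0.56), Suclg1 (-0.56), Dsn1 (-0.87) and Ndc80 (-0.78) did too, and with quantile scaling Ndc80 (-0.92) and mt-Co3 (-0.51).

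The replicate letters did not pair the libraries (correlations of same-letter deviations -0.176 to 0.120). With them as a replicate block 822 genes were called (352 higher, 470 lower), 937 with the GC trend removed as well, 88 of the 107 genes kept their call, and Cpeb3 still differed by 0.0783 FPKM after scaling but had an exact p of 0.0625, the smallest that pairs allow. The Cpeb3 difference was 0.0681 to 0.0844 FPKM with each library left out, and the difference in GC trend was 0.270 to 0.382, against 0.325. Depth limits genes near 0.1 FPKM. The cause of the other changes was not tested.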
